A study of Homo sapiens with 6 samples.

Results

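The 4 ID genes ID1, ID2, ID3 and ID4 were examined together with 6 genes of bone morphogenetic protein (BMP) signaling, namely the inhibitory SMAD6 and SMAD7, the signal transducer SMAD9, the pseudoreceptor BAMBI and the receptors BMPR1A and BMPR2. They are 10 of the 23228 genes in the count tables and were found by their symbols. They were chosen by name after their fold changes between the groups compared here had been seen, so the values of that comparison are given for them as a description with no p-value. The cells were RL95-2, a human endometrial carcinoma cell line, from which 3 control and 3 ADP-CM libraries of mRNA were sequenced. All cells were grown with serum and then held for 24 h without serum. Control cells received RPMI mixed with plain DMEM in equal parts, and treated cells received RPMI mixed in equal parts with ADP-CM. ADP-CM is DMEM conditioned by mature adipocytes from human visceral fat, which according to the paper came from female patients with a high BMI. The comparison asks what medium conditioned by adipocytes changes in these tumor cells, beside medium that was not conditioned. What the adipocytes released into the medium and what they took from it cannot be told apart. The comparison covers 1 cell line at 1 time point, 24 h. The labels do not say whether replicates were separate cultures, so tests measure the spread between these samples, which may be technical.

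BMPs are secreted ligands that bring together type I and type II receptor kinases such as BMPR1A and BMPR2. The receptors phosphorylate SMAD1, SMAD5 and SMAD9, which enter the nucleus with SMAD4 and switch on the ID genes and their own inhibitors, among them SMAD6, SMAD7 and BAMBI. ID proteins have a helix-loop-helix but no DNA-binding region, and they tie up E proteins, so that these transcription factors cannot bind DNA with their partners. In the endometrium BMP signaling is known for its part in decidualization and implantation.

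Letters that SMAD proteins are known to prefer were looked up in the reference genome before the gene starts, to show what lies upstream of the 5 genes with the largest differences. The GC-rich SMAD1 and SMAD5 motif GGCGCC and the palindrome GTCTAGAC, made of a pair of SMAD boxes (GTCT, or AGAC on the other strand), were searched on both strands in the 3000 bases before the annotated start of 20176 protein-coding genes on GRCh37. GGCGCC was present for 47.4% of all genes and for 9 of the 10 genes described here, all but SMAD9. GTCTAGAC was present for 1.83% of all genes and for SMAD6 and SMAD7. GGCGCC followed after 5 bases by GTCT was present for 0.322% of all genes and for ID3. These motifs were picked with the members known, a match is a description and not a binding site, and the windows were read from the reference and not from the cells. In the sequences, written 5′ to 3′ on the strand of the gene, capitals mark GGCGCC and each GTCT or AGAC.
ID1 (GRCh37, chr20:30192097-30192162, plus strand, bases -989 to -924 from the start, in an exon of an unnamed noncoding gene): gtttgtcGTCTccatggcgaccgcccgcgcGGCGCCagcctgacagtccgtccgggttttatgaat
ID2 (chr2:8816638-8816703, plus strand, -2337 to -2272, in an exon of ID2-AS1): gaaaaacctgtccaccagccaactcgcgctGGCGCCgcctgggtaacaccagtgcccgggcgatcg
ID3 (chr1:23888918-23888983, minus strand, -2991 to -2926, in no annotated exon): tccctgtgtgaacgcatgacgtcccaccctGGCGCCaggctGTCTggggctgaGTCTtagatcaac
ID4 (chr6:19837063-19837128, plus strand, -538 to -473, in no annotated exon): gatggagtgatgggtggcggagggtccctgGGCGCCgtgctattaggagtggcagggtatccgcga
SMAD6 (chr15:66993287-66993352, plus strand, -1287 to -1222, in no annotated exon): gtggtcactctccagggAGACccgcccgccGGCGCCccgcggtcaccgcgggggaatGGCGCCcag
SMAD6 (chr15:66994532-66994573, plus strand, the last 42 bases before the start): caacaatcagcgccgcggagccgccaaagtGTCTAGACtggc
GGCGCC began 959 bases before the start of ID1, 2307 before ID2, 2961 before ID3 and 508 before ID4, and it was present once for each of them. SMAD6 had 4 such matches, BAMBI 5, BMPR1A 6, and SMAD7 and BMPR2 3 each. BMPR1A, whose levels overlapped between the groups, had the most matches of the 10 genes. Whether matches go with differences in level was not tested.

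The libraries held between 16262614 and 18363033 reads on genes, and 12663 genes, all 10 described here among them, had enough reads to be tested. Of all tested genes, 13.0% were lower and 13.5% higher with ADP-CM (edgeR quasi-likelihood test, Benjamini-Hochberg adjusted p under 0.01), and 1.14% were lower by more than 1.5-fold as well. Every ADP-CM library lay below every control library for 22.8% of the tested genes, and above for 22.7%. The cells expressed the epithelial markers KRT8, KRT18, KRT19, EPCAM, CDH1 and PAX8. The listed markers MUC1, ESR1 and PGR were scarce, with at most 68, 51 and 12 reads in any library, and SOX17 had 0 reads. Of the 8 tested epithelial markers 4 were lower and 2 higher in ADP-CM, and the summed level of the list was 4091 to 4162 CPM (counts scaled to the size of each library, with TMM factors) in control and 3444 to 3488 in ADP-CM. The adipocyte hormone genes ADIPOQ and LEP had 0 reads in every library, and the 10 adipocyte markers summed to 15.3 to 16.6 CPM in control and 14.2 to 16.3 in ADP-CM. The stromal list, with THY1 at 0, summed to 61.5 to 68.4 CPM in control and 78.3 to 79.2 in ADP-CM, mostly COL1A1. The endothelial list, with KDR at 0, summed to 60.7 to 66.4 and 54.5 to 61.6 CPM, mostly CDH5, and the leukocyte list to 6.96 to 8.17 and 9.82 to 11.9 CPM, mostly CD68. The part of these shifts in the values below was not tested. In such bulk libraries, fewer cells of a type and less RNA per cell cannot be told apart.

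All 4 ID genes were lower in ADP-CM, each with every treated library below every control library. ID1 (chromosome 20, 30193086 to 30194318 on GRCh37, as are all positions given for genes), an inhibitor of differentiation that BMP induces directly in many cell types, had 341, 329 and 326 CPM in control replicates 1, 2 and 3. It had 204, 192 and 211 CPM in ADP-CM replicates 1, 2 and 3. The highest treated library thus lay well below the lowest control library, and ADP-CM stood at 61.0% of control, or -0.71 as log2 fold change (SE 0.026).
ID3 (chromosome 1, 23884417 to 23885992), a close relative of ID1 that can stand in for it during development, had the most reads of the 10 genes, with 10709 to 11465 in a control library and 7960 to 8609 in an ADP-CM library. Its control values of 660.1, 667 and 670.5 CPM were nearly equal, and its ADP-CM values were 449, 434 and 468 CPM. That is 67.6% of control, or -0.56 as log2 fold change (SE 0.021), the smallest difference of the 4 ID genes.
ID2 (chromosome 2, 8818975 to 8824591), known as a partner of the retinoblastoma protein and as a regulator of lymphoid and mammary development, had the largest difference of the 10 genes. Its values were 20.3, 20.7 and 19.6 CPM in control and 7.18, 8.23 and 7.72 CPM in ADP-CM. On the read scale this was 329 to 349 reads in a control library against 130 to 151 in an ADP-CM library, so the counts behind it were much smaller than those of ID1 and ID3. ADP-CM stood at 38.3% of control, or -1.39 as log2 fold change (SE 0.088), and 10 of the 12663 tested genes had a lower one. ID2 lies opposite the antisense gene ID2-AS1 over 6.55% of its exonic bases, and the strand setting of the counting is not given in the sources used here.
ID4 (chromosome 6, 19837601 to 19842428), the most distant member of the family and a marker of some stem and progenitor cells, had 46.7, 46.4 and 44.3 CPM in control. In ADP-CM it had 20.5, 22.1 and 23.0 CPM. The treated libraries were near 47.8% of control, with a log2 fold change of -1.06 and a standard error of 0.056, and 34 of the tested genes had a lower one, against 136 for ID1 and 256 for ID3. The scarcer members of the family, ID2 and ID4, were thus the ones with the larger log2 fold changes.

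**Figure D1:**
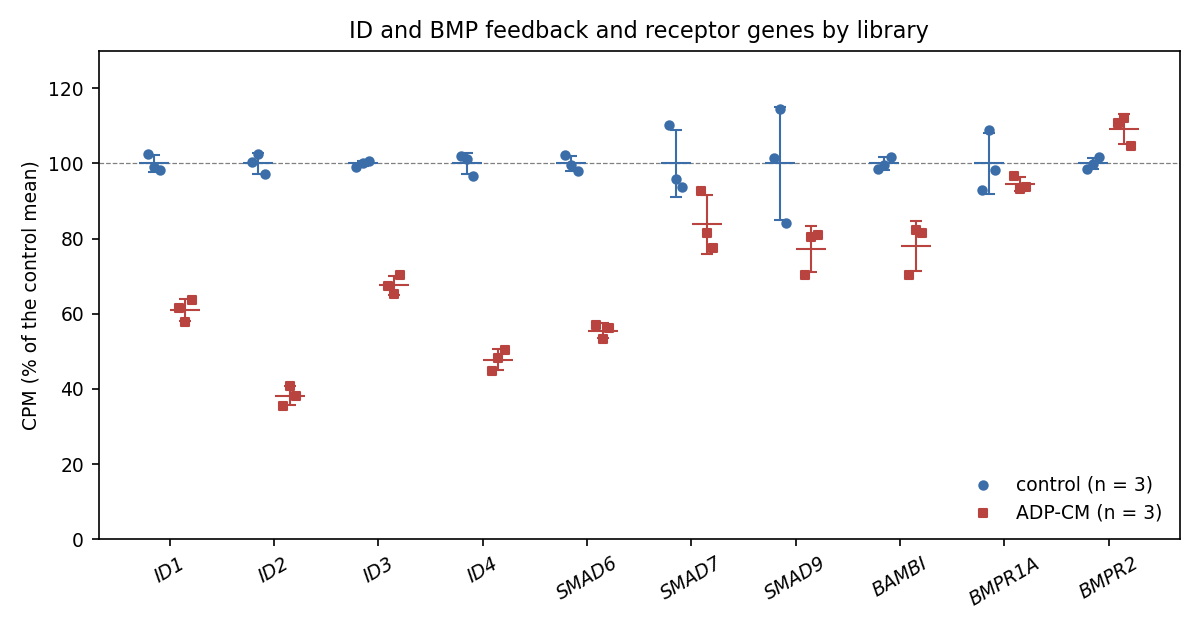
The level of each gene in each library as a percentage of its mean control CPM, with control as circles, ADP-CM as squares, and the mean and SD of 3 libraries as bars. The ID genes and SMAD6 sit between 35.6% (ID2) and 70.3% (ID3) of control in the ADP-CM libraries, while BMPR1A overlaps and BMPR2 lies at 104.6% to 112.1%.

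Of the inhibitory SMADs, SMAD6 had the larger difference. SMAD6 (chromosome 15, 66994574 to 67075187), which blocks BMP receptors and SMAD1 and is itself a BMP target, had 41.3, 40.3 and 39.6 CPM in control and 23.1, 21.5 and 22.7 CPM in ADP-CM. No treated library came near a control library, and the level was 55.5% of control, or -0.85 as log2 fold change (SE 0.056). SMAD7 (chromosome 18, 46446223 to 46477335), which inhibits both BMP and TGF-beta receptors, had 13.9, 12.1 and 11.9 CPM in control. It had 11.7, 10.3 and 9.79 CPM in ADP-CM, so that the groups only just failed to overlap, and its log2 fold change was -0.25 (SE 0.091). SMAD9 (chromosome 13, 37418968 to 37495024), the scarcest of the receptor-activated SMADs and a BMP-induced gene in several tissues, had 5.98, 6.75 and 4.97 CPM in control and 4.14, 4.74 and 4.78 CPM in ADP-CM, again without overlap by a narrow margin. With 75 to 114 reads in a library, its log2 fold change of -0.37 had the widest standard error of the 10 genes, 0.14.
BAMBI (chromosome 10, 28966439 to 28971861) encodes a membrane protein that resembles a type I receptor without a kinase and dampens BMP and TGF-beta signals. It had 33.4, 33.8 and 34.5 CPM in control and 23.8, 27.9 and 27.6 CPM in ADP-CM, which is 78.1% of control, or -0.36 as log2 fold change (SE 0.058). ADP-CM replicate 1 was the lowest of the treated libraries, but all of them lay below control.
The receptors had the log2 fold changes nearest to 0. BMPR1A (chromosome 10, 88516353 to 88692582), a type I receptor for BMP2 and BMP4, had 26.2, 30.7 and 27.7 CPM in control and 27.3, 26.3 and 26.5 CPM in ADP-CM. These values overlap, and the log2 fold change of -0.082 is close to its standard error of 0.060. BMPR2 (chromosome 2, 203241050 to 203432474), the type II receptor that phosphorylates BMPR1A, was the only one of the 10 with a higher level, at 65.5, 66.4 and 67.5 CPM in control and 73.6, 74.5 and 69.5 CPM in ADP-CM. Its log2 fold change was 0.13 (SE 0.039), and it passed the threshold in only 1 of the 6 fits without 1 library, the one without ADP-CM replicate 3, and did not pass it with DESeq2.

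In the edgeR quasi-likelihood test, 6 of the 10 genes were lower past the threshold of 0.01, where 13.0% of all tested genes were, and 1 was higher, where 13.5% were. The 4 genes lower by more than 1.5-fold were ID1, ID2, ID4 and SMAD6, with 1.14% of all genes past the same limits. Every ADP-CM library was below every control library for 8 of the 10, beside 22.8% of all tested genes, and above for 1, beside 22.7%. The median log2 fold change was -0.47, beside -0.0023 over all tested genes. The members were chosen from this same comparison, so these counts describe the choice and are no evidence of their own. ID1, ID2, ID3, ID4, SMAD6 and BAMBI passed the threshold in all 12 alternative fits, SMAD7 and BMPR1A in 0, and SMAD9 in 1, the fit without control replicate 3.

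**Figure D2:**
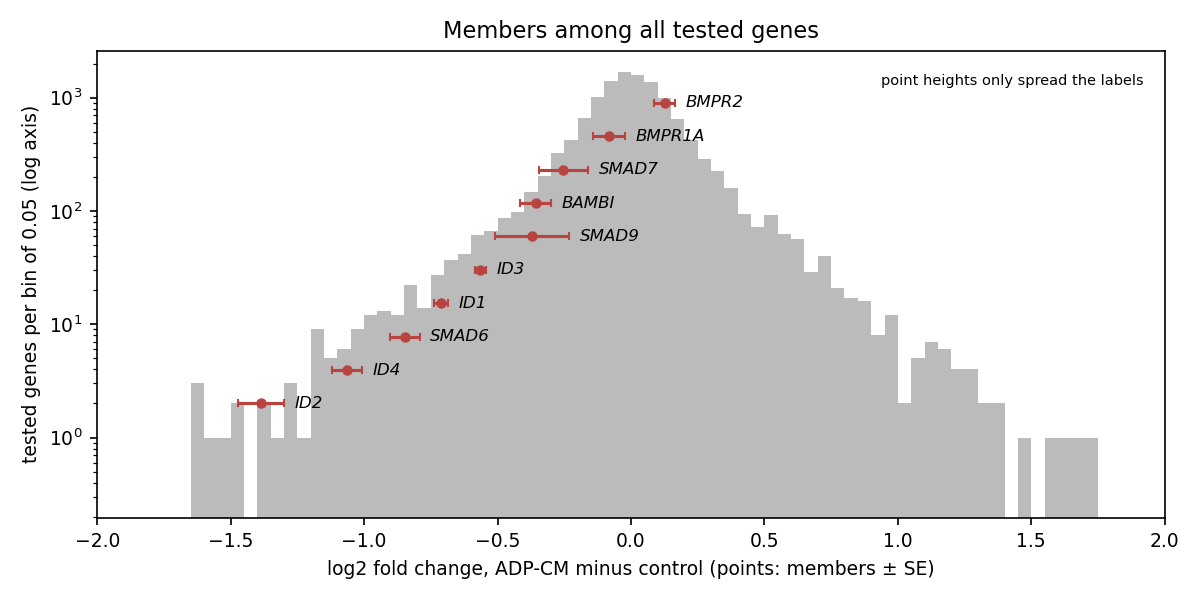
Histogram of the log2 fold changes (ADP-CM minus control) of the tested genes on a logarithmic count axis, with genes beyond 2 in either direction outside the axis, and the 10 genes as points with standard errors, whose height has no meaning. ID2, at -1.39, lies in the far left tail, and BMPR1A and BMPR2 lie in the dense center.

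Per kb of the longest coding transcript, ID3 and ID1 were by far the most abundant. In control the order was ID3 at 701 ± 5.55 CPM per kb, ID1 at 269 ± 6.22, BAMBI at 20.0 ± 0.331, ID4 at 11.8 ± 0.337, SMAD6 at 10.6 ± 0.218, ID2 at 9.89 ± 0.267, BMPR2 at 5.51 ± 0.0865, BMPR1A at 4.40 ± 0.360, SMAD7 at 3.79 ± 0.335 and SMAD9 at 1.06 ± 0.161 (n = 3, SD). Only BMPR1A and SMAD7 overlapped among neighbours in that order. With ADP-CM, BMPR2 at 6.01 ± 0.219, SMAD6 at 5.86 ± 0.209 and ID4 at 5.65 ± 0.320 CPM per kb (n = 3, SD) overlapped, and ID2, above BMPR2 in control, was below it at 3.78 ± 0.258, and also below BMPR1A at 4.16 ± 0.0829. Part of this order depends on the length used. Per kb of all annotated exons, SMAD6 was at 4.72 CPM in control, below BMPR2 at 5.32, and at 2.62 with ADP-CM, no longer near BMPR2 at 5.80 and ID4 at 5.65. On that length ID2 was again above BMPR2 in control, at 9.12, and below it with ADP-CM, at 3.48, but it stayed above BMPR1A, which was at 2.65.
The 4 ID genes together made 1068, 1063 and 1060 CPM in control and 681, 656 and 709.8 CPM in ADP-CM, or 64.1% of control. Of their summed CPM per kb, ID3 held 70.7% ± 0.632 in control and 73.2% ± 0.225 in ADP-CM, and ID1 held 27.1% ± 0.598 and 25.3% ± 0.326 (n = 3, SD). ID2 and ID4 made up 0.997% and 1.19% of it in control. Most of the difference in the summed level thus lay in ID3 and ID1, although ID2 and ID4 had the larger log2 fold changes.

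**Figure D3:**
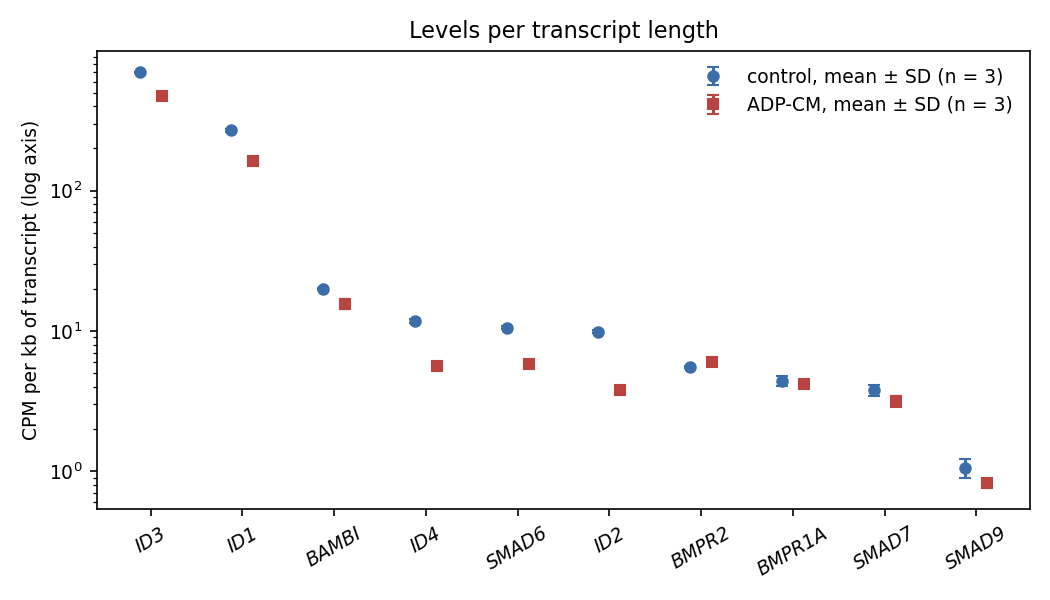
Mean and SD of CPM per kb of the longest coding transcript on a logarithmic axis, for control (circles) and ADP-CM (squares), ordered by the control level. ID3 at 701 and ID1 at 269 CPM per kb in control stand far above BAMBI, the next, at 20.0, and on this length the order of ID4, SMAD6, ID2 and BMPR2 changes between the groups.

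The E proteins, the partners that ID proteins tie up, did not pass the threshold. Of them, TCF3 had a log2 fold change of 0.064 (edgeR quasi-likelihood test, adjusted p = 0.0455), and TCF12 had 0.059 (edgeR quasi-likelihood test, adjusted p = 0.175), so that 0 of the 2 tested genes passed 0.01 (1 at an unadjusted p under 0.05). DESeq2 also passed 0, and TCF4 had at most 4 reads in any library. TCF3 and TCF12 summed to 302 ± 7.64 CPM in control and 315 ± 1.00 CPM in ADP-CM (n = 3, SD). CDKN1A, the cyclin-dependent kinase inhibitor p21 that E proteins can activate, fell from 46.3 ± 1.46 to 35.5 ± 2.30 CPM (n = 3, SD), or -0.38 on the log2 scale (edgeR quasi-likelihood test, adjusted p = 5.59e-09). CDKN2A, which encodes p16, fell by 0.17 on the log2 scale (edgeR quasi-likelihood test, adjusted p = 0.000139). CDKN2B and CDKN1C, with log2 fold changes of 0.016 and -0.42, did not pass (edgeR quasi-likelihood test, adjusted p = 0.902 and 0.273).

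Other genes of the pathway passed the threshold in both directions. Their lists, with those of the E proteins and kinase inhibitors above, were drawn up with earlier results of these data known. The counts and p-values given for listed genes are thus a description and no independent evidence. Of 93 listed ligands, receptors, antagonists, SMADs, inhibitors, targets and ID partners outside the 10, 65 were tested. Of these, 14 were lower and 11 higher past the same threshold, which 13.0% and 13.5% of all tested genes passed. Their median log2 fold change was 0.0092 beside -0.0023 over all tested genes. The same 13.0% and 13.5% stand beside the counts of each list below.
Among the ligands, 3 of 6 tested genes fell and 0 rose (edgeR quasi-likelihood test; 1 was higher at an unadjusted p under 0.05, which was BMP6, and 0 with DESeq2). BMP2, a main ligand of BMPR1A, had 255, 265 and 276 reads in control and 215, 207 and 215 in ADP-CM, which in CPM is a fall from 15.9 ± 0.251 to 11.6 ± 0.300 (n = 3, SD). Its log2 fold change was -0.45 (edgeR quasi-likelihood test, adjusted p = 6.53e-06). BMP3, an unusual ligand that opposes other BMPs, and BMP8A were scarce, with at most 41 and 16 reads in any library, and had log2 fold changes of -0.93 and -1.33 with edgeR adjusted p-values of 0.00128 and 0.00702. BMP3 no longer passed with DESeq2, or without control replicate 3 or ADP-CM replicate 3, with log2 fold changes of -0.87 and -0.73 in the latter 2 fits. BMP8A no longer passed with no filter on low counts, nor in 5 of the 6 fits without 1 library, with log2 fold changes of -1.46, -1.29 and -1.24 without control replicates 1, 2 and 3 and of -1.34 and -1.11 without ADP-CM replicates 1 and 3. BMP8A has a near-identical copy, BMP8B, and reads that align equally well to both would be counted on neither. BMP7, the most abundant ligand gene by CPM, was at 41.8 ± 0.489 in control and 43.5 ± 2.46 in ADP-CM (n = 3, SD, edgeR quasi-likelihood test, adjusted p = 0.372), and BMP8B had a log2 fold change of 0.052.

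Of the 9 other receptors and co-receptors tested, 1 rose and 0 fell (edgeR quasi-likelihood test; 1 was lower at an unadjusted p under 0.05, which was NEO1, and 0 with DESeq2). ACVR2B, a type II receptor for activins and some BMPs, had a log2 fold change of 0.41 (edgeR quasi-likelihood test, adjusted p = 0.00393). It did not pass with DESeq2, nor without control replicate 1 or 2 or ADP-CM replicate 1 or 2, where its log2 fold change was 0.43, 0.37, 0.31 and 0.40. NEO1 and TGFBR3, the most abundant co-receptor genes by CPM, had log2 fold changes of -0.098 and 0.085.
Among secreted antagonists and modulators, follistatin (FST), which traps activins and some BMPs, rose from 10.6 ± 0.906 to 15.8 ± 0.730 CPM (n = 3, SD), or 0.58 on the log2 scale (edgeR quasi-likelihood test, adjusted p = 6.73e-08). TWSG1, which helps chordin hold BMPs, and CRIM1, a membrane protein that binds BMPs, fell by 0.19 and 0.099 on the log2 scale (edgeR quasi-likelihood test, adjusted p = 6.9e-06 and 4.57e-05). FSTL1 and FSTL3, with log2 fold changes of 0.024 and 0.052, were among 5 of 8 tested genes that did not pass. The ligand genes BMP10, BMP15, GDF2, GDF7 and GDF10 and the antagonist genes CHRD, GREM1, SOST and CER1 had 0 reads in every library.

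Apart from SMAD9, which is among the 10 genes and had a log2 fold change of -0.37, 5 SMADs carry signals of the BMP and TGF-beta family, of which 2 rose and 0 fell (also 0 at an unadjusted p under 0.05 in edgeR and 0 with DESeq2). SMAD5, which BMP receptors activate, rose from 80.7 ± 2.94 to 94.5 ± 2.64 CPM (n = 3, SD), or 0.23 on the log2 scale (edgeR quasi-likelihood test, adjusted p = 4.31e-07). SMAD3, which TGF-beta and activin receptors activate, rose from 174 ± 4.84 to 214 ± 1.55 CPM (n = 3, SD), or 0.30 on the log2 scale (edgeR quasi-likelihood test, adjusted p = 1.12e-14). SMAD4, the shared partner, and SMAD2 did not pass, at 0.029 and -0.013, nor did SMAD1, which BMP receptors activate like SMAD5 and SMAD9, named after its value was seen, at -0.073.
Of the 15 tested intracellular inhibitors and turnover genes, 4 rose and 1 fell, all by little. The ubiquitin ligases SMURF1 and SMURF2, which mark SMADs and receptors for degradation, had log2 fold changes of 0.17 and 0.14, the SMAD repressor SKIL 0.16, and FKBP1A, which holds type I receptors inactive, 0.12. Their adjusted p-values were 0.00248, 0.000208, 0.00066 and 7.2e-05 in edgeR's quasi-likelihood test, and TOB1, an inhibitor of proliferation that binds SMADs, was at -0.12 with 0.0078 in the same edgeR test. TOB1 did not pass with DESeq2, with no filter on low counts or in 5 of the 6 fits without 1 library, all but that without ADP-CM replicate 3. SMURF1 did not pass without control replicate 1 (log2 fold change 0.15) or control replicate 3 (0.17) or with DESeq2, nor SKIL without control replicate 3 (0.13). CTDSP2 and CTDSPL, phosphatases that act on SMADs, had log2 fold changes of 0.0019 and 0.018.

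Among the 16 other tested BMP target genes, 6 fell, 3 rose and 7 did not pass, where 13.0% of all tested genes fell and 13.5% rose. ATOH8, a helix-loop-helix factor that BMP induces together with the ID genes in liver and endothelium, had the largest fall of the list, with 279, 284 and 287 reads in control and 174, 177 and 186 in ADP-CM. In CPM it went from 16.9 ± 0.229 to 9.79 ± 0.278 (n = 3, SD), at log2 fold change -0.79 (SE 0.083, edgeR quasi-likelihood test, adjusted p = 3.61e-12). GATA2, a factor needed for the progesterone response of the uterus, fell from 49.2 ± 0.949 to 36.4 ± 0.909 CPM (n = 3, SD), or -0.43 on the log2 scale (edgeR quasi-likelihood test, adjusted p = 2.5e-11). DLX3, a homeobox factor of epidermis and placenta, and the AP-1 subunit JUNB had log2 fold changes of -0.29 and -0.23 (edgeR quasi-likelihood test, adjusted p = 2.59e-06 and 3.79e-09). HES1 and UNC5B, named here after their values were seen, fell by 0.26 and 0.57 on the log2 scale. Neither passed with DESeq2 or without ADP-CM replicate 1, and UNC5B had at most 96 reads in any library. SNAI2, which encodes the repressor Slug, rose by 0.24 on the log2 scale (edgeR quasi-likelihood test, adjusted p = 6.79e-11). The homeobox genes MSX1 and MSX2, named after their values were seen, rose by 0.27 and 0.20 (edgeR quasi-likelihood test, adjusted p = 0.000366 and 0.00699). Without control replicate 1 or 2, or without ADP-CM replicate 1 or 3, 2 targets rose in place of 3, and 4 to 6 fell. GATA3 and TBX3 did not pass, with log2 fold changes of -0.061 and -0.031. The list as a whole had a median log2 fold change of -0.11, with members on either side of 0, and with DESeq2 4 fell and 2 rose.

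**Figure D4:**
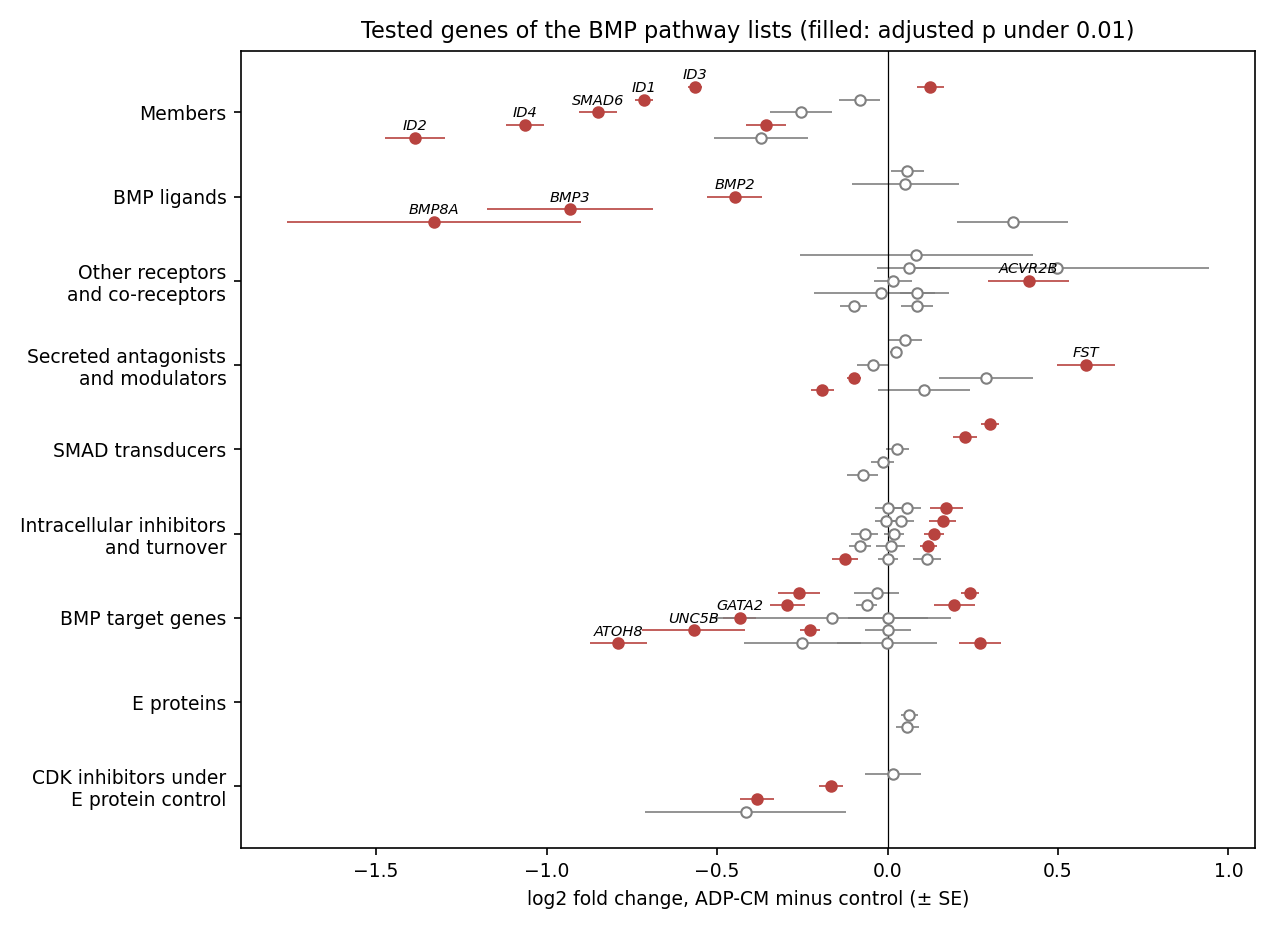
Log2 fold changes with standard errors of the 10 genes (top) and of the tested genes of 8 lists of the BMP pathway, with filled points for genes at an adjusted p-value under 0.01. Filled points lie on both sides of 0 among targets and inhibitors, and ATOH8, at -0.79, is the lowest of the targets.

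The genes whose centered log2 CPM over the 6 libraries differed least from each ID gene were taken from 9561 tested genes outside the 10 with at least 10 CPM, by the root mean square difference. For ID1 they were TRIM29, SCARA3 and CDKN2C, with differences of 0.030, 0.036 and 0.040 log2 units. For ID3 they were LMO7, SC4MOL (now MSMO1) and TXNRD1, at 0.018, 0.022 and 0.025. For ID2 they included KRT13 and KRT5, at 0.082 and 0.086, and for ID4 they included HMGCS1 and ALPP, at 0.042 and 0.071. The measure is led by the difference between the groups, so any gene with a like fold change comes close. KRT5 and KRT13 belong to a family with similar sequences, and reads that align equally well to several of its genes would be counted on none.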

How the data were processed

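Counts per gene were deposited for each of the 6 libraries. According to the paper's methods and the labels, the authors aligned single reads of stranded mRNA libraries to hg19 with TopHat2 and counted them on RefSeq genes with HTSeq, whose versions and strand setting are not given in the sources used here. HTSeq's summary lines entered neither library sizes nor tests (no gene 10.3% in control and 11.5% in ADP-CM, ambiguous 0.719% and 0.714%, not uniquely aligned 20.5% and 20.7%). Every pair of replicates in a group differed by more than sampling noise. The chi-square per degree of freedom ran from 1.23 (control replicates 1 and 2) to 2.03 (ADP-CM replicates 2 and 3). The common coefficient of variation between replicates beyond that noise was small, at 1.67%.

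Counts were normalized by TMM, filtered with filterByExpr and compared by the quasi-likelihood test of edgeR 4.0.16 in R 4.3.3, with Benjamini-Hochberg adjustment over all 12663 genes and a threshold of 0.01. Standard errors come from the fitted model. DESeq2 1.42.0, other size factors and filters, a replicate term and the removal of each library were alternatives. The tests were tried on simulated counts first. Transcript lengths, positions and gene starts are those of GENCODE release 44 on GRCh37, and upstream windows were read from that genome, which is the build of hg19. The members and lists were chosen with earlier results of these data known. Of each list, called genes with the smallest p-values, at most 5, and up to 2 abundant genes that did not pass were named, as were the 3 genes most like each ID gene, of which some are not reported here.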

Additional observations from a re-analysis of the deposited data

Results flagged for a closer look

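Groups of 3 libraries are too small for a search for outlying samples. The share of all reads that lay on no gene, which enters none of the comparisons above, was 11.5% in ADP-CM and 10.3% in control, with SDs of 0.0331 and 0.0528 percentage points (n = 3 each). Its part in the values of the ID genes was not tested.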

How the results depend on the processing

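All 10 genes kept the sign of their log2 fold change in the 12 alternative fits, each within the spread between replicates of its main value. With DESeq2, 1015 genes were lower and 1124 higher in place of 1650 and 1707, 0 of the 10 was higher, and 9 other pathway genes were lower in place of 14. Without single libraries, 6 to 7 of the 10 were lower and 0 to 1 higher. Among uncalled genes the log2 fold change changed sign when single libraries were left out, with ranges of -0.13 to 0.14 for BMP8B, -0.039 to 0.0057 for SMAD2, -0.0098 to 0.017 for CTDSP2, -0.095 to 0.037 for TBX3 and -0.053 to 0.067 for CDKN2B. The exon union in place of the longest coding transcript lowered the control level by construction to 9.12 CPM per kb for ID2, 445.1 for ID3, 4.72 for SMAD6, 3.21 for SMAD7, 15.8 for BAMBI, 2.80 for BMPR1A, 5.32 for BMPR2 and, by less than the SD of the replicates, 0.991 for SMAD9.

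Deviations of libraries with the same replicate number correlated at -0.018, 0.037 and 0.0070 across 9570 genes, so the numbers were not taken as pairs. With the replicate block 1716 genes were lower and 1786 higher, with 6 and 1 of the 10 among them, and ADP-CM replicates 1 and 3 did not correlate best with their own number. BMP8A had too few reads for a minimum of 10 in every library and got no adjusted p from DESeq2. Depth limited SMAD9 most of the 10, with 75 to 114 reads in a library and a standard error of 0.14.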
